A study of Mus musculus with 6 samples.

Results

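The genes described here are the 7 that build the protein reabsorption machinery of the proximal tubule: Lrp2, Cubn, Amn, Dab2, Clcn5, Ocrl and Fcgrt. They were picked by gene symbol from the 46095 genes of the deposited count table, and all 7 passed the filter on low counts that left 14611 genes for testing. RNA-seq was performed on PTECs, the primary tubular epithelial cells of mouse kidney, freshly isolated at 10 weeks of age from C57 mice. In the group labelled VHL-KO (replicates 1, 2 and 4), Ksp-Cre was used to delete floxed VHL alleles. In the VHL-KO;SETD2-KO group (replicates 2, 3 and 4), this Cre was used to delete floxed VHL and floxed Setd2, so that by design both groups carry the VHL deletion, and no wild-type library entered the comparison. Each library came from the cells of 1 of 3 mice per label. Ksp-Cre is driven by the Cdh16 promoter, which is active in tubular epithelium and is not specific to the proximal segment. The counts do not show in what share of the proximal cells it acted.

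Megalin (encoded by Lrp2) and cubilin (Cubn) are very large receptors of the apical membrane that together capture albumin, vitamin carriers, hormones and other filtered proteins from the tubular fluid. Amnionless (Amn) anchors cubilin in the membrane, Dab2 couples the cytoplasmic tail of megalin to the clathrin coat, and the endosomes that follow need the chloride/proton exchanger ClC-5 (Clcn5) and the phosphoinositide phosphatase Ocrl to acidify and recycle the receptors. The neonatal Fc receptor (Fcgrt) rescues albumin and immunoglobulin G from lysosomal breakdown. Inherited loss of CLCN5 or OCRL in people causes Dent disease or Lowe syndrome, both with loss of small proteins in the urine.

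The libraries held between 11168552 and 17883466 counts, so that a signal of 3 counts corresponded to 0.168 to 0.269 CPM (counts scaled to the total of the library). The floor reflects counting error alone, because without molecular identifiers 2 reads can stem from the same molecule. Levels below are CPM after TMM normalisation by edgeR. VHL-KO replicate 4 stood apart from the other 5 libraries, with 11.3% of its counts on mitochondrial genes against 25.9% to 36.4%. Setd2, the gene targeted in the second group, was counted 1179, 799 and 132 times in VHL-KO replicates 1, 2 and 4, against 1499, 1019 and 1429 times in VHL-KO;SETD2-KO replicates 2, 3 and 4. Its level was thus no lower in the group named for its deletion (log2 fold change 0.52 ± 0.64 SE, edgeR adjusted p = 0.787). Without VHL-KO replicate 4 it had 0.052 ± 0.21 SE (edgeR adjusted p = 0.913). The authors report reduced SETD2 in the renal tubules of their mice from RT-qPCR and Western blotting. Counts over the whole gene do not show whether a floxed exon was lost, so the groups are named below by their labels. Xist, the transcript of the inactive X chromosome, was counted 11704 times in VHL-KO;SETD2-KO replicate 3 and 0 to 4 times elsewhere. Judged by this transcript, that library came from a female and the others from males, so sex was not balanced between the labels. The sample titles do not give sex. Clcn5 and Ocrl lie on the X chromosome, and the part of sex in the values of any gene was not tested.

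Dab2 recognises NPXY motifs in the tails of lipoprotein receptors, and the coding sequence of Lrp2 was read for them because the balance of these transcripts is described below. In GRCm38, Lrp2 lies on the minus strand at chr2:69424340-69586065. A search of its reading frame gave 3 NPXY motifs, of which the last 2 lie near the end of the protein. They are shown here in the coding direction with the motif codons in capitals, the first at chr2:69430281-69430340 in exon 76, 137 codons from the end, and the second at chr2:69425971-69426012 in exon 78, 58 codons from the end.
Lrp2 exon 76: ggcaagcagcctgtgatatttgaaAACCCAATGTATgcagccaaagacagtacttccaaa
Lrp2 exon 78: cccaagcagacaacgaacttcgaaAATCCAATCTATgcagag

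Cubn and Amn encode the partners of a single receptor, and the 250 bases before the start of each gene (RefSeq, GRCm38.p6) are shown to set their different base composition side by side. The Cubn window, on the minus strand at chr2:13491877-13492126, had a GC content of 39.6%, and the Amn window, on the plus strand at chr12:111270846-111271095, one of 61.2%. The letters searched on both strands were ACGTG, the core of hypoxia response elements, TCACGTG, an E-box like those of lysosomal genes, and GTTAAT, part of the site bound by HNF1 factors. Of 32851 such windows over all genes, 16.6% held ACGTG, 3.13% held TCACGTG and 6.43% held GTTAAT. The Cubn window held none of them. The Amn window held 1 TCACGTG, in capitals, which also gives both of its ACGTG matches, 1 on each strand. A match is a description of letters and not a sign of binding.
Cubn: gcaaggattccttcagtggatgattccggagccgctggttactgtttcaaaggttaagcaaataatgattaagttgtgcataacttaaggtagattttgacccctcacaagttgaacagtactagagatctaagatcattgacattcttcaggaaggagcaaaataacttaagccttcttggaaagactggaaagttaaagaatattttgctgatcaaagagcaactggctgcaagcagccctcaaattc
Amn: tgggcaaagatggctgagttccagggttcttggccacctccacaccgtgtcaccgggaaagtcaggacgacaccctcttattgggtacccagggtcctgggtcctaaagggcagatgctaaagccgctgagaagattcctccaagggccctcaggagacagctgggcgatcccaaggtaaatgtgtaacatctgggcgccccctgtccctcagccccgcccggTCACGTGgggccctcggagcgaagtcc

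Both receptors had a lower mean in the VHL-KO;SETD2-KO libraries, and for both the spread among the VHL-KO libraries was larger than the difference. Lrp2 measured 3384, 3351 and 939.9 normalised CPM in VHL-KO replicates 1, 2 and 4, and 1167, 1681 and 1734 in VHL-KO;SETD2-KO replicates 2, 3 and 4. Replicates 1 and 2 of VHL-KO were thus the highest libraries and replicate 4 the lowest of all 6, so that the groups overlapped. The group means were 2558 ± 1401 and 1527 ± 313 CPM (SD, n = 3 each), a log2 fold change of -0.74 ± 0.58 SE (edgeR adjusted p = 0.688).

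Cubn (chr2:13276338-13491813, minus strand) had a similar arrangement of libraries. It measured 562, 732 and 292 CPM in VHL-KO replicates 1, 2 and 4, and 235, 396 and 354 CPM in VHL-KO;SETD2-KO replicates 2, 3 and 4. Here VHL-KO replicate 4 lay within the range of the other label. Means of 529 ± 222 and 328 ± 83.3 CPM (SD, n = 3 each) gave a log2 fold change of -0.69 ± 0.49 SE (edgeR adjusted p = 0.661).

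Amn (chr12:111271095-111276426, plus strand), the partner without which cubilin does not reach the membrane, was the only member to pass the unadjusted threshold, a p-value under 0.05 with a fold change of at least 1.5. It measured 66.9, 61.9 and 528 CPM in VHL-KO replicates 1, 2 and 4, and 33.6, 67.0 and 42.2 CPM in VHL-KO;SETD2-KO replicates 2, 3 and 4. A single library, VHL-KO replicate 4, was 8.53 times the median of the other 5, while replicates 1 and 2 of VHL-KO fell within the range of the other label. The log2 fold change was -2.20 ± 0.88 SE (edgeR adjusted p = 0.625), and without that library it was -0.44 ± 0.29 SE (edgeR adjusted p = 0.435). The unadjusted call of Amn was lost without VHL-KO replicate 4 and also without any 1 of the VHL-KO;SETD2-KO libraries. The count was therefore 1 of 7 members lower and 0 higher, where 4.68% of all tested genes were called lower and 2.65% higher. No member passed with an adjusted p under 0.05, a threshold that 0.00684% of the tested genes met. DESeq2 called 10.6% of genes by the unadjusted and 0.349% by the adjusted threshold, and 0 members by either. It returned no p-value for Amn, which its filter on outlying counts set aside, and no adjusted p for Clcn5 and Ocrl. The groups overlapped for all 7 members, where 9.62% of tested genes lay higher and 11% lower without overlap.

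Dab2 (chr15:6299788-6440712, plus strand), the adaptor of the megalin tail, had nearly equal means under both labels. It measured 556, 468 and 174 CPM in VHL-KO replicates 1, 2 and 4, and 334, 492 and 379 CPM in VHL-KO;SETD2-KO replicates 2, 3 and 4. The highest and the lowest library both carried the VHL-KO label, and the group means were 399 ± 200.1 and 401 ± 81.5 CPM (SD, n = 3 each). The log2 fold change was 0.0071 ± 0.52 SE (edgeR adjusted p = 0.997).

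Clcn5 (chrX:7153810-7319358, minus strand), which supplies the chloride conductance of acidifying endosomes, lay close to the receptors in its order of libraries. It measured 129, 130.4 and 24.1 CPM in VHL-KO replicates 1, 2 and 4, and 57.9, 80.0 and 67.6 CPM in VHL-KO;SETD2-KO replicates 2, 3 and 4. The 2 highest libraries and the lowest one were all labelled VHL-KO. The log2 fold change was -0.46 ± 0.62 SE (edgeR adjusted p = 0.801).

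Ocrl (chrX:47912387-47965868, plus strand), the phosphatase of the same endosomes, was the steadiest member outside VHL-KO replicate 4. It measured 22.9, 24.6 and 4.68 CPM in VHL-KO replicates 1, 2 and 4, and 24.8, 21.7 and 25.2 CPM in VHL-KO;SETD2-KO replicates 2, 3 and 4. The other 5 libraries spanned 21.7 to 25.2 CPM and VHL-KO replicate 4 lay at 0.190 of their median, on 50 counts. The log2 fold change was 0.46 ± 0.59 SE with all 6 libraries (edgeR adjusted p = 0.797) and 0.0074 ± 0.14 SE without that library (edgeR adjusted p = 0.983).

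Fcgrt (chr7:45092990-45103851, minus strand), the receptor that salvages albumin, resembled Amn in having its highest value in VHL-KO replicate 4. It measured 138, 102 and 582 CPM in VHL-KO replicates 1, 2 and 4, and 92.8, 196 and 95.4 CPM in VHL-KO;SETD2-KO replicates 2, 3 and 4. The other VHL-KO libraries lay within the range of the VHL-KO;SETD2-KO libraries. The log2 fold change was -1.10 ± 0.72 SE (edgeR adjusted p = 0.643) and changed sign to 0.087 ± 0.37 SE without VHL-KO replicate 4 (edgeR adjusted p = 0.919).

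**Figure D1:**
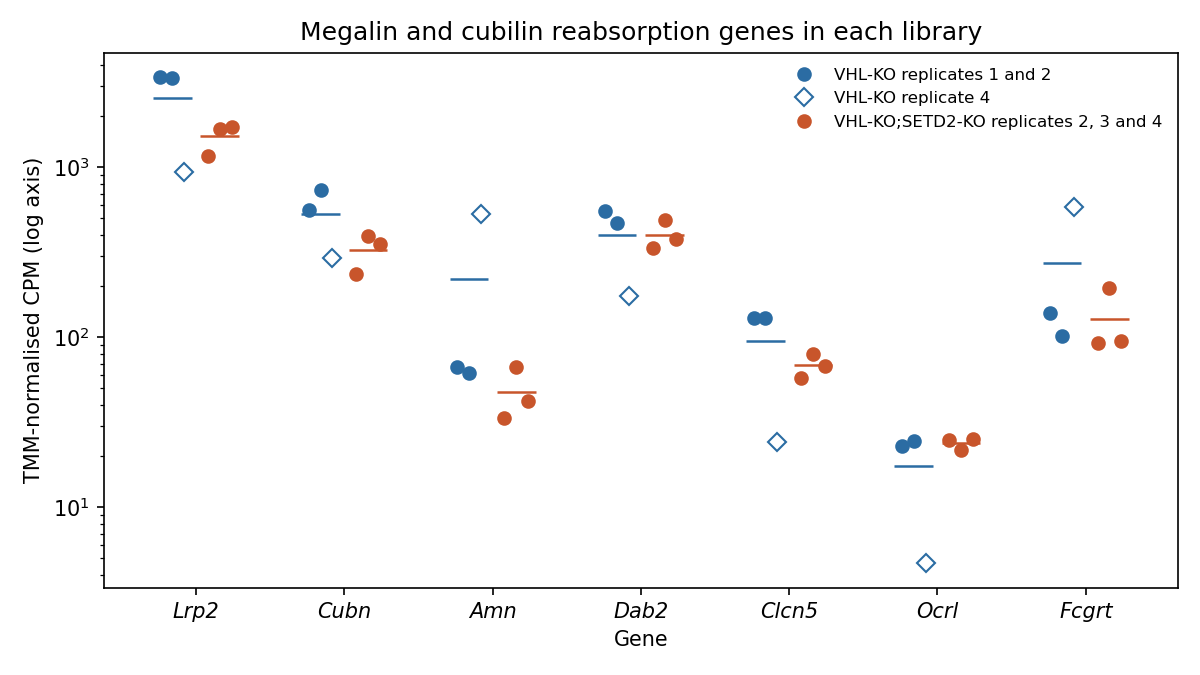
Normalised CPM on a log axis for each of the 7 genes, with 1 point per library, VHL-KO in blue (replicate 4 as an open diamond), VHL-KO;SETD2-KO in orange, and a bar at each group's mean. VHL-KO replicate 4 is the lowest library for Lrp2, Dab2, Clcn5 and Ocrl and the highest for Amn and Fcgrt.

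Since VHL-KO replicate 4 was an extreme for 6 of the 7 members, each comparison was repeated without it, which leaves 2 libraries against 3. The library was thus singled out by values of the members themselves. For a member with a low value in it, leaving it out raises the VHL-KO mean. The calls and p-values of this paragraph are therefore a description and no independent support for a difference. Without the library, Lrp2, Cubn and Clcn5 were lower in each of the VHL-KO;SETD2-KO libraries than in either VHL-KO library. The VHL-KO means became 3367 CPM for Lrp2, 647 CPM for Cubn and 129.7 CPM for Clcn5. The log2 fold changes were -1.14 ± 0.26 SE for Lrp2 (edgeR adjusted p = 0.108), -0.98 ± 0.27 SE for Cubn (edgeR adjusted p = 0.148) and -0.92 ± 0.17 SE for Clcn5 (edgeR adjusted p = 0.0869). The count was 3 of 7 members lower by the unadjusted threshold, where 7.14% of the tested genes were called lower, and 0 of 7 by the adjusted one, which 0.00667% of genes passed. For non-overlap it was also 3 of 7, where 21.5% of the genes lay lower and 20.4% higher without overlap. DESeq2 on the same 5 libraries called these 3 members with an adjusted p of 0.000152 for Lrp2, 0.0151 for Cubn and 0.000693 for Clcn5, where it called 4.69% of genes lower by that threshold. Limma-voom with quality weights, which kept the library at a weight of 0.0376, called Amn as well as these 3, or 4 of 7 members, where it called 8.25% of genes lower with an adjusted p under 0.05. Dab2 took a log2 fold change of -0.36 ± 0.23 SE (edgeR adjusted p = 0.415), so its sign turned when the library was left out.

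**Figure D2:**
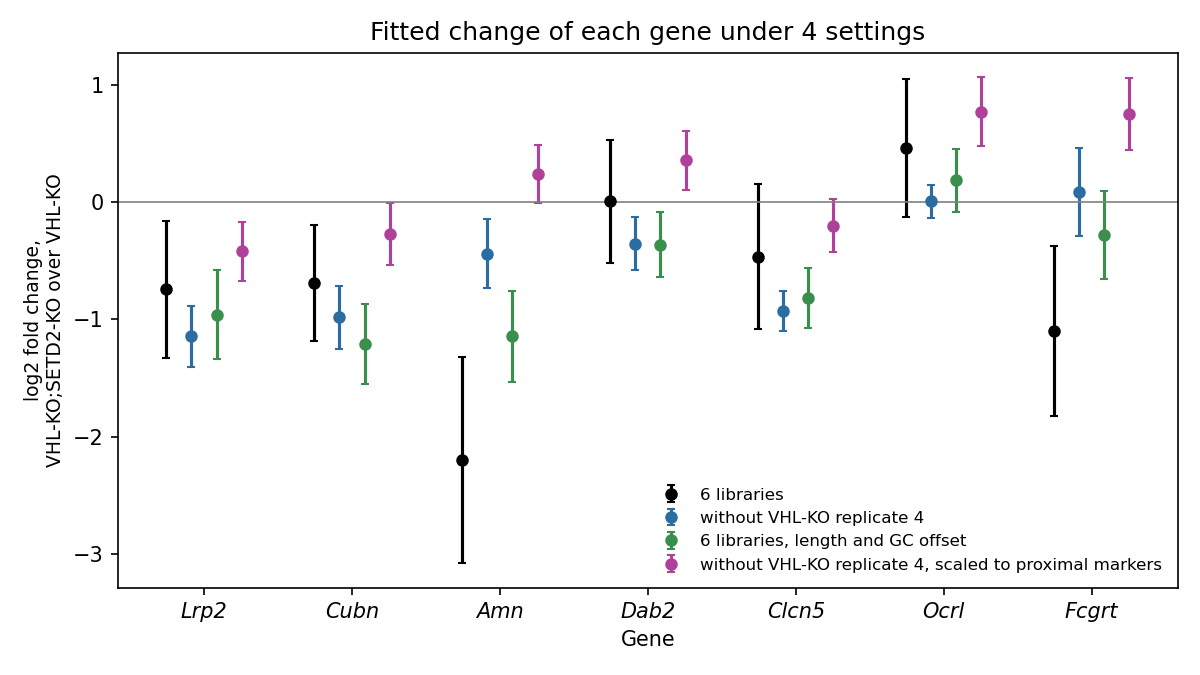
Fitted log2 fold change, VHL-KO;SETD2-KO over VHL-KO, with bars of 1 SE, for each gene under 4 settings: 6 libraries, without VHL-KO replicate 4, 6 libraries with a length and GC offset, and without VHL-KO replicate 4 scaled to proximal tubule markers. Lrp2, Cubn and Clcn5 lie below 0 in these 4 settings, and Amn moves from -2.20 to 0.24. The bar of Clcn5 reaches 0 with 6 libraries and with the scaling to proximal tubule markers. With all 6 libraries scaled to the summed proximal tubule markers, a setting not plotted, Lrp2, Cubn and Clcn5 had 0.54, 0.60 and 0.82.

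The members differ in transcript length and base composition, and VHL-KO replicate 4 differed from the other libraries along both. The exons of Amn cover 1701 bases and those of Fcgrt 1782 bases, and the GC content of their longest transcripts is 62.9% and 55.9%. The exons of the other 5 members cover between 5217 bases (Dab2) and 16559 bases (Lrp2), with a GC content of 44.7% to 49.1% in the longest transcript. In VHL-KO replicate 4, Amn lay 3.33 and Fcgrt 2.28 log2 units above the mean of the other 5 libraries. The 5 longer members lay below it, by -0.53 for Cubn, -1.14 for Lrp2, -1.33 for Dab2, -1.86 for Clcn5 and -2.32 for Ocrl. The same difference over all tested genes had a median of -2.15 where the GC content was under 45%, of -0.83 from 45% to 50%, of 0.83 from 50% to 55% and of 1.46 at or above 55%. By exon length the median was 1.06 under 2000 bases and -1.72 at or above 8000 bases. Amn lay above the 95th percentile of its GC bin (2.64), and the other 6 members lay between the 5th and 95th percentiles of theirs.

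A correction of each library for length and GC content, added after the data had been seen, kept all 6 libraries and left 13811 genes for testing. With it the log2 fold changes were -0.96 ± 0.38 SE for Lrp2, -1.21 ± 0.34 SE for Cubn, -1.14 ± 0.39 SE for Amn and -0.82 ± 0.25 SE for Clcn5. These 4 members passed the unadjusted threshold, where 8.87% of genes were called lower, and none passed the adjusted one, as 0.00724% of genes did (lowest edgeR adjusted p = 0.219, for Cubn). Fcgrt took -0.28 ± 0.37 SE and Ocrl 0.19 ± 0.27 SE.

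**Figure D3:**
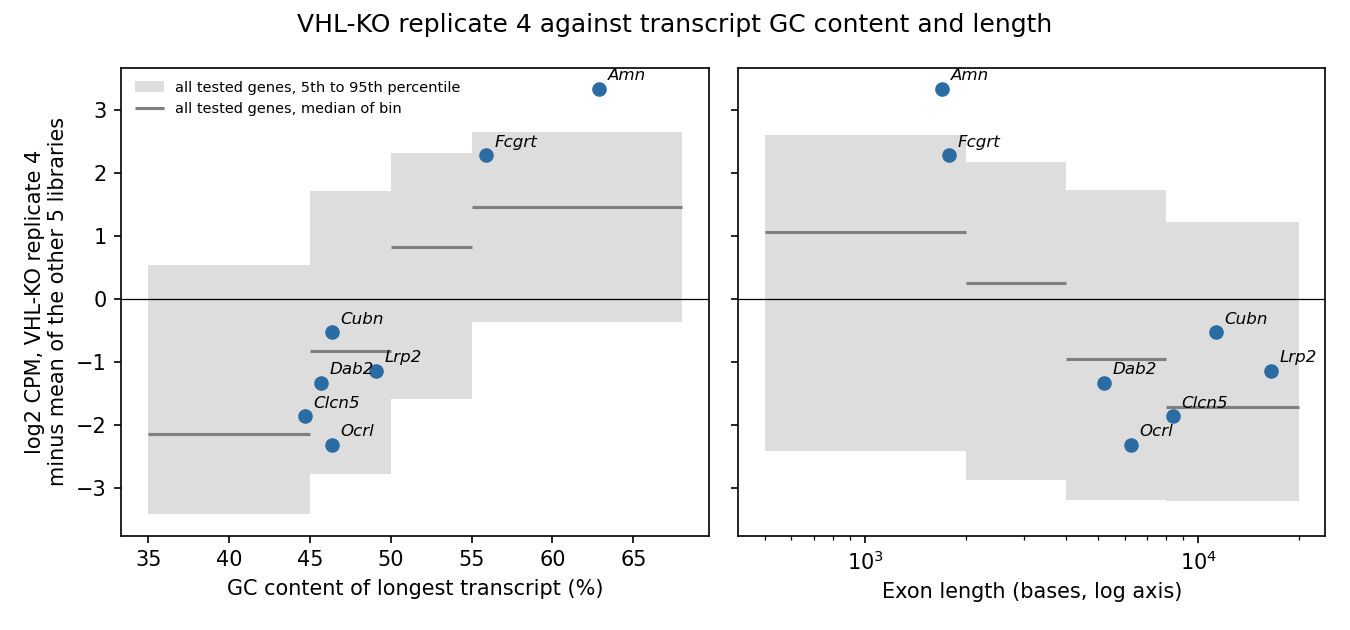
Difference in log2 CPM between VHL-KO replicate 4 and the mean of the other 5 libraries, against transcript GC content in percent (left) and exon length in bases on a log axis (right), for the 7 genes (points) and all tested genes (grey line, bin median; shading, 5th to 95th percentile; the outer bins have no outer limit). The short, GC-rich Amn and Fcgrt lie above 0 and the 5 longer genes lie below it.

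Ratios between members of 1 library do not depend on how that library is scaled. The ratio of Lrp2 to Dab2 counts was between 5.40 and 7.15 in the VHL-KO libraries, replicate 4 included, and between 3.42 and 4.58 in the VHL-KO;SETD2-KO libraries. On the log2 scale its means were 2.63 ± 0.20 and 1.92 ± 0.23 (SD, n = 3 each). The receptor was thus less abundant relative to its adaptor in each VHL-KO;SETD2-KO library. The ratio of Clcn5 to Ocrl, both X-linked, was between 5.16 and 5.64 in the VHL-KO libraries and between 2.34 and 3.68 in the VHL-KO;SETD2-KO libraries. Its highest value under the VHL-KO;SETD2-KO label, 3.68, was in replicate 3, the library with Xist counts.

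Of all 21 ratios between 2 members, 7 did not overlap between the labels, 33.3% against 20.8% of the ratios of all pairs of tested genes. The pairs share genes and are not independent. Each of the 7 had a two-sided exact permutation p = 0.1, the smallest that 3 libraries against 3 allow, and 0.3 after adjustment over the 21 ratios, so that this design cannot reach 0.05. Besides the ratios above they were Lrp2 to Clcn5, Lrp2 to Ocrl, Cubn to Dab2, Cubn to Ocrl and Amn to Fcgrt, each lower in the VHL-KO;SETD2-KO libraries. Some of these gaps were narrow. For Lrp2 to Clcn5 the lowest VHL-KO ratio was 25.68 and the highest VHL-KO;SETD2-KO ratio 25.64. For Cubn to Dab2 they were 1.01 and 0.934. The Lrp2 to Cubn ratio, between the receptors themselves, overlapped at 3.22 to 6.02 and 4.25 to 4.96. The Cubn to Amn ratio, between the partners of 1 receptor complex, was between 5.91 and 11.8 in 5 libraries and 0.554 in VHL-KO replicate 4, the only library with more Amn than Cubn counts.

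**Figure D4:**
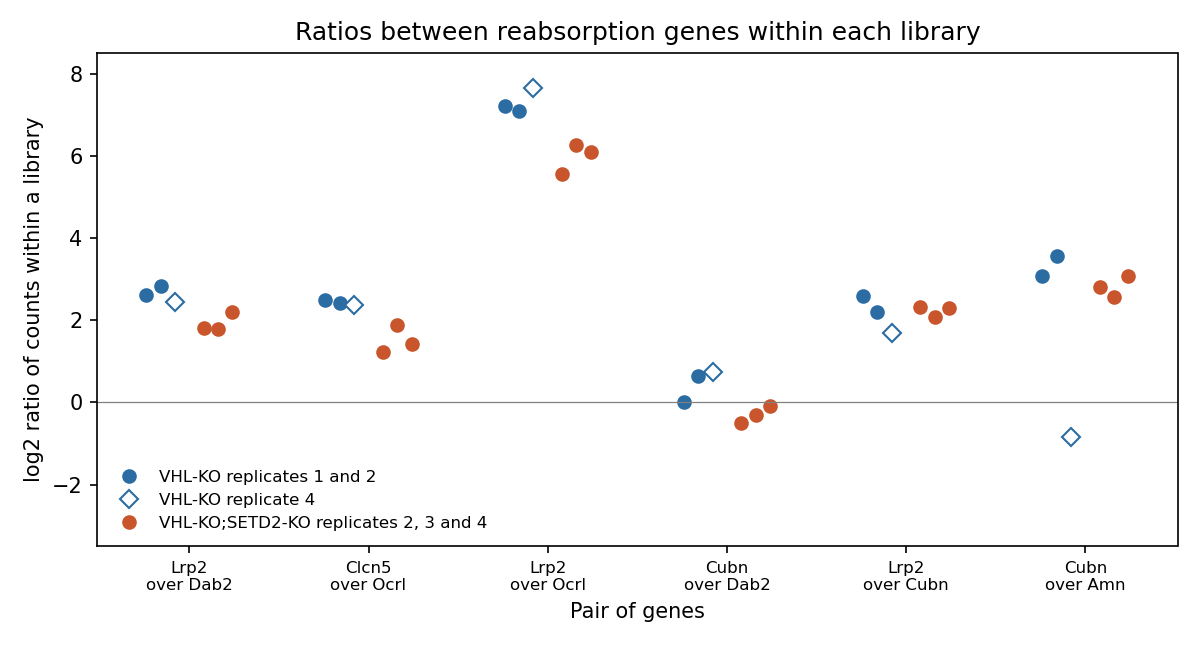
Log2 ratio of counts within each library for 6 pairs of the genes, 1 point per library (VHL-KO in blue, replicate 4 as an open diamond; VHL-KO;SETD2-KO in orange). The ratios of Lrp2 to Dab2, Clcn5 to Ocrl, Lrp2 to Ocrl and Cubn to Dab2 do not overlap between the labels, whereas Cubn to Amn is set apart by VHL-KO replicate 4 alone.

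Per length, as CPM per kilobase of exon, the order of the levels, by the median of the 5 libraries other than VHL-KO replicate 4, was Lrp2 (104.7), Dab2 (89.8), Fcgrt (57.4), Amn (36.4), Cubn (35.1), Clcn5 (9.54) and Ocrl (3.92). The ranges of Lrp2 and Dab2, of Dab2 and Fcgrt and of Amn and Cubn overlapped across these 5 libraries. Within a library, Lrp2 lay above Dab2 in 5 of the 5 and Dab2 above Fcgrt in 4, whereas Amn lay above Cubn in 1. The ranges of Fcgrt and Amn, of Cubn and Clcn5 and of Clcn5 and Ocrl did not overlap. In VHL-KO replicate 4 the order was different, with Fcgrt (327) and Amn (310.3) ahead of Lrp2 (56.8).

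The summed level of the 7 members was 4859, 4870 and 2545 CPM in VHL-KO replicates 1, 2 and 4 and 1945, 2934 and 2696 CPM in VHL-KO;SETD2-KO replicates 2, 3 and 4. In bulk RNA, fewer proximal cells and less RNA per cell cannot be told apart. All 12 proximal tubule markers were above the floor of 3 counts in every library, and 11 of them had a lower mean in VHL-KO;SETD2-KO. Their sum was 33411 to 38715 CPM in the VHL-KO libraries and 13186 to 15888 CPM in the others. The sum was not spread evenly over the markers. Kap alone had 18289, 16188 and 7619 CPM in VHL-KO replicates 1, 2 and 4. It had 6760, 1216 and 6966 CPM in VHL-KO;SETD2-KO replicates 2, 3 and 4. Scaling to this sum, used below, carries that unevenness. Slc34a1, the sodium/phosphate cotransporter of the proximal brush border, had a log2 fold change of -1.66 ± 0.59 SE, and Slc22a6, the basolateral organic anion transporter, one of -1.93 ± 0.53 SE (edgeR adjusted p = 0.625 for both). Without VHL-KO replicate 4 they had -0.95 and -1.41. By the unadjusted threshold 5 of the 12 were lower and 0 higher, where 4.68% of all tested genes were called lower. Without VHL-KO replicate 4, 7 were lower, where 7.14% of all tested genes were.

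Markers of other cells were present in every library. Their calls below stand beside 2.65% of all tested genes called higher and 4.68% lower by the unadjusted threshold. Without VHL-KO replicate 4 these shares were 8.29% and 7.14%. All 7 podocyte markers had a higher mean in VHL-KO;SETD2-KO and 4 were called higher by the unadjusted threshold, with a summed level of 1517 to 2176 CPM in the VHL-KO libraries and 2078 to 5106 CPM in the others. Of 9 endothelial markers 8 had a higher mean and 0 were called, at sums of 1502 to 2103 and 1642 to 4864 CPM. Distal convoluted tubule markers summed to 584 to 1800 and 968 to 2617 CPM, and collecting duct markers to 59.8 to 591 and 101 to 344 CPM. By the unadjusted threshold 2 of 5 distal convoluted tubule and 2 of 10 collecting duct markers were higher and 0 lower. Without VHL-KO replicate 4 it was 2 of 5 and 4 of 10, with a higher mean in 5 and 9 of them, and the median log2 fold change of the collecting duct list moved from 0.22 to 1.92. Thick limb markers summed to 870.2 to 3213 and 803 to 2276 CPM. Of these 6 markers, 1 was called higher (Kcnj1, log2 fold change 1.63) and 1 lower (Cldn10, -0.87). Kidney injury markers summed to 283 to 769 and 405 to 1628 CPM, highest in VHL-KO;SETD2-KO replicate 3. Of 7 tested, 1 was called higher and 1 lower, or 2 and 1 without VHL-KO replicate 4. Of 9 macrophage markers 7 had a lower mean and 2 were called lower, C1qa and C1qb, at sums of 151 to 796 and 153 to 321 CPM. Neither was called without VHL-KO replicate 4, where C1qa moved from -2.08 to -0.93 and C1qb from -2.02 to -1.10 on the log2 scale. In that fit 1 other macrophage marker was called lower and 7 of the 9 had a lower mean. The median log2 fold change of the list moved from -1.16 to -0.58. Fibroblast and smooth muscle markers summed to 92.8 to 550.4 and 95.2 to 241 CPM, with 0 of 8 called and a median log2 fold change of -0.78. Without VHL-KO replicate 4 all 8 had a higher mean, 3 were called higher (Col1a2, Acta2 and Tagln), and the median turned to 0.67. No marker of the podocyte, endothelial, distal convoluted tubule and collecting duct lists was at or under 3 counts in any library. The part of cell composition in the members' values was not tested. When each library was scaled to the summed proximal markers, the log2 fold changes of Lrp2, Cubn and Clcn5 turned to 0.54, 0.60 and 0.82, none past the threshold, while the median of all tested genes moved from 0.0093 to 1.31 and the calls from 387 higher and 684 lower to 7383 and 11. Dab2 (1.31) and Ocrl (1.72) then passed the unadjusted threshold as higher, as 50.5% of all tested genes did. Scaling moves all genes by nearly the same amount. The place of Lrp2, Cubn and Clcn5 below the median gene, kept here, was thus nearly fixed beforehand and is no test. Without VHL-KO replicate 4 and scaled by the median ratio of the same markers, Lrp2 took -0.42 ± 0.25 SE, Cubn -0.27 ± 0.26 SE and Clcn5 -0.20 ± 0.23 SE (edgeR adjusted p = 0.197, 0.402 and 0.462), where the median of all genes was 0.78. Ocrl (0.77) and Fcgrt (0.75) passed the unadjusted threshold as higher in that fit, as 48.5% of genes did.

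**Figure D5:**
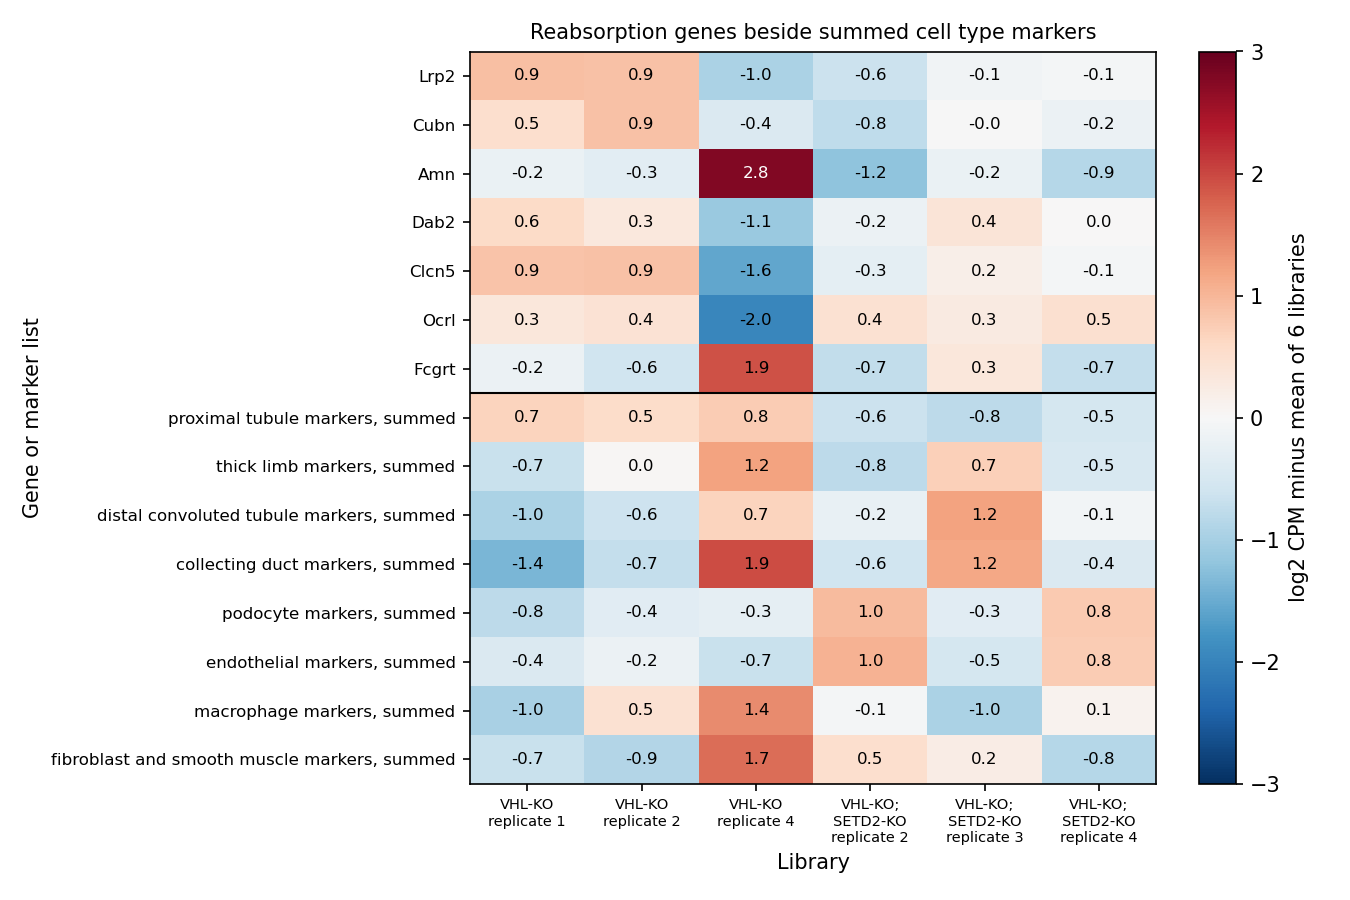
Log2 CPM of each of the 7 genes (above the line) and of the summed markers of 8 cell types (below it), minus the mean over the 6 libraries, in each library (red, above the mean; blue, below). The summed proximal tubule markers separate the labels, although singly only 6 of the 12 do. None of the 7 genes, each shown singly, separates them, and VHL-KO replicate 4 is set apart in both blocks.

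The rest of the endocytic pathway was read from 5 lists with 98 genes, of which 95 were tested. By the unadjusted threshold 1 was higher and 6 were lower, together 7.37% of them, against 7.33% of all tested genes in either direction. No gene of these lists passed with an adjusted p under 0.05 (lowest 0.625, edgeR). Without VHL-KO replicate 4 the count was 4 higher and 13 lower, 17.9% against 15.4% of all tested genes.

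Of 18 coat and adaptor genes, 0 passed in either direction, and Hspa8, the chaperone that uncoats clathrin vesicles and the most abundant of the list, had a log2 fold change of -0.38 ± 0.47 SE. Of 19 early and recycling endosome genes, 2 were lower. Rab38, a small GTPase of endosomal and lysosome-related traffic, measured 10.1, 8.79 and 13.1 CPM in VHL-KO replicates 1, 2 and 4 and 3.61, 3.72 and 4.08 CPM in VHL-KO;SETD2-KO replicates 2, 3 and 4. Its groups did not overlap, and its log2 fold change was -1.49 ± 0.40 SE (edgeR adjusted p = 0.625), or -1.32 without VHL-KO replicate 4. The other was Ehd1, a recycling ATPase at 0.732 to 8.32 CPM, whose high value was in VHL-KO replicate 4 and whose log2 fold change of -1.95 became -0.62 without it. Rab11fip3, a Rab11 effector and the most abundant of the list, had -0.96 ± 0.43 SE.

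Of 19 genes of endosomal and lysosomal acidification, 1 was higher and 1 lower. Atp6v0d2, a proton pump subunit that is also found in intercalated cells of the collecting duct, measured 3.33, 7.31 and 1.496 CPM in VHL-KO replicates 1, 2 and 4 and 9.03, 22.6 and 10.2 CPM in VHL-KO;SETD2-KO replicates 2, 3 and 4, a log2 fold change of 1.79 ± 0.66 SE (edgeR adjusted p = 0.625). Slc9a3r1, the scaffold NHERF1 of the brush border, measured 196, 192 and 855 CPM and 117, 132 and 123 CPM in the same order of libraries. It was lower without overlap, at -1.74 ± 0.66 SE with all libraries and -0.65 without VHL-KO replicate 4. Pdzk1, another brush border scaffold and the most abundant of the list, had -0.99 ± 0.46 SE, or -0.65 without it.

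Of 21 late endosome and lysosome genes tested, 2 were lower. Glb1, lysosomal beta-galactosidase, measured 101, 146 and 329.7 CPM in VHL-KO replicates 1, 2 and 4 and 49.8, 48.7 and 55.5 CPM in VHL-KO;SETD2-KO replicates 2, 3 and 4. No VHL-KO;SETD2-KO library reached the lowest VHL-KO one, and the log2 fold change was -1.90 ± 0.53 SE, or -1.27 without VHL-KO replicate 4. Ctsh, the lysosomal protease cathepsin H, had -1.48 ± 0.55 SE, or -0.73 without that library. Psap, the sphingolipid activator precursor and the most abundant of the list, had -1.33 ± 0.65 SE, or -0.33 without that library.

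Of 18 other receptors and ligand handling genes tested, 1 was lower. Folr1, the folate receptor of the proximal brush border, measured 303, 227 and 1454 CPM in VHL-KO replicates 1, 2 and 4 and 145, 192 and 161 CPM in VHL-KO;SETD2-KO replicates 2, 3 and 4, a log2 fold change of -1.997 ± 0.74 SE that became -0.68 without VHL-KO replicate 4. Tcn2, which encodes the vitamin B12 carrier transcobalamin that megalin takes up, was the most abundant of the list and had -1.61 ± 0.71 SE, or -0.44 without VHL-KO replicate 4. The ratio of Lrp2 to Lrpap1, the chaperone that escorts megalin through the secretory pathway, was 5.66 to 10.6 in 5 libraries and 1.09 in VHL-KO replicate 4.

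Among 4563 well-expressed genes, those whose levels over the 6 libraries most resembled Lrp2 were Enpp3, Abcc2, Dhtkd1, Cyp2j11 and Galnt11, with a root mean square difference of 0.094 to 0.157 log2 units after centring each gene. Cubn ranked 40, Clcn5 60 and Dab2 153 by this measure, whereas Fcgrt ranked 4313 and Amn 4536. The genes most like Cubn were Nmrk1, Mlxipl and Cep85, at 0.114 to 0.161. Over the 5 libraries other than VHL-KO replicate 4, Clcn5 ranked 46 and Cubn 54 for likeness to Lrp2. Amn ranked 721 there, ahead of Dab2 at 831, and Fcgrt ranked 3173. Of the genes named above as most like Lrp2, only Enpp3 was again among the nearest 5. The ranks over all 6 libraries carry the differences of VHL-KO replicate 4 across all genes.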

How the data were processed

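RNA-seq of PTECs from 6 mice was analysed. The authors made directional cDNA libraries from TRIzol RNA, read both fragment ends on an Illumina instrument and deposited unnormalised counts for each gene symbol. HISAT2 2.0.4 and GRCm38 are named in the submitters' processing notes; the counting program, annotation and use of strand are not given in the sources used here. Genotype and replicate came from the sample titles.

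Starting from the deposited counts, edgeR 4.0.16 (R 4.3.3) was applied with TMM factors, filterByExpr and the quasi-likelihood test, with the label as the only factor and Benjamini-Hochberg adjustment over 14611 genes. The study's methods name DESeq2 and the thresholds used here (p under 0.05, fold change 1.5 or more); DESeq2 1.42.0 was an alternative here, as was limma 3.58.1. The SE of a log2 fold change is its size divided by the square root of the test's F statistic. Log2 CPM used a prior count of 2. Totals of 11168552 to 17883466 counts set a floor of 3 counts at 0.168 to 0.269 CPM. Other alternatives were RLE size factors, limma-voom, no filter, at least 10 counts in every sample, libraries without mitochondrial genes, scaling to proximal tubule markers, a replicate block, leaving out each library and, for counts of genes, a fold change of at least 2.

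The members and gene lists were chosen with earlier results of these data known, so no list is independent evidence. Named were all members and Setd2, genes of the 5 pathway lists past the unadjusted threshold, the most abundant gene of each list, marker genes where a list moved, and the genes most like Lrp2 and Cubn among those with a mean log2 CPM of at least 5. Xist and the ratios other than those of Cubn to Amn, Lrp2 to Cubn and Lrp2 to Lrpap1 were singled out after their values were seen. Gene positions, exon lengths and GC content came from GENCODE for GRCm38, matched by symbol, and covered 94.5% of the tested genes. Promoter windows came from RefSeq. The fits were tested on simulated data. The number of per-sample columns not used was 0.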

Additional observations from a re-analysis of the deposited data

How the results depend on the processing

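Each log2 fold change was recomputed under 19 alternatives, 5 of them chosen after seeing the data (length and GC offset, 2 scalings by the median ratio of proximal tubule markers, DESeq2 without VHL-KO replicate 4, limma-voom with quality weights). Ocrl kept its sign in all 19 (0.0030 to 1.72), and the other 6 members did not. It also kept its side of the adjusted threshold wherever it had an adjusted p, which DESeq2 with 6 libraries did not give. VHL-KO replicate 4 limits all 7 members, Ocrl included (0.0074 without it), and the cause of its difference was not tested. The RLE size factors and DESeq2 each gave Dab2 -0.035. With the length and GC offset Dab2 had -0.36, with DESeq2 without VHL-KO replicate 4 it had -0.36, and with quality weights -0.45. The last 2 of these brought Lrp2 (-1.15 and -1.16), Cubn (-0.99 and -1.06) and Clcn5 (-0.93 and -0.99) past the adjusted threshold, quality weights also Amn (-0.70), and DESeq2 without that library gave Fcgrt 0.083. Scaling to summed proximal markers gave Lrp2 0.54, Cubn 0.60, Clcn5 0.82 and Fcgrt 0.31. Scaling by their median ratio gave 0.15, 0.25, 0.39 and 0.44, with a median over all genes of 1.12, and without VHL-KO replicate 4 it gave Amn 0.24 and Fcgrt 0.75. Leaving out each library in turn moved Lrp2 from -1.14 to -0.49, Cubn from -0.98 to -0.38, Amn from -2.62 to -0.44, Dab2 from -0.36 to 0.33, Clcn5 from -0.92 to -0.16, Ocrl from 0.0074 to 0.79 and Fcgrt from -1.52 to 0.087, with positive Fcgrt only without VHL-KO replicate 4.

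Both labels have a replicate 2 and a replicate 4. Across genes, the deviations of same-numbered libraries from their label's mean correlated at r = 0.16 for 2 and -0.32 for 4. With 3 libraries per label, VHL-KO replicate 4 enters every VHL-KO mean, so these values cannot show whether same-numbered libraries were paired. With the replicate block Clcn5 had 0.15, 0 members and 0 genes of the 5 pathway lists were called by the unadjusted threshold, and 147 genes were called in all against 1071.

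All calls given in this paragraph under summed markers or a median ratio were higher, whereas those under RLE, DESeq2 with 6 libraries, no filter, and the length and GC offset were lower except 1 acidification gene under that offset. DESeq2 without VHL-KO replicate 4 and quality weights gave both directions in the lists, and only lower calls among the members. Over all tested genes the unadjusted threshold called 7.33% in the report, 10.6% with DESeq2 and 50.6% with summed markers. It called 14.8% with the length and GC offset, 27.9% with the median ratio and 48.9% with that ratio without VHL-KO replicate 4. DESeq2 without that library called 16.8% and quality weights 25%, or 8.25% and 18.2% by the adjusted threshold. Shares for the other settings are not given here. Members called by the unadjusted threshold, 1 in the report, numbered 0 by DESeq2, limma-voom and the median ratio of proximal markers, 2 by either the summed markers or the median ratio without VHL-KO replicate 4, 3 by DESeq2 without VHL-KO replicate 4, 4 by the length and GC offset and by quality weights, and 0 to 3 when 1 library was left out. By the adjusted threshold they numbered 3 by DESeq2 without VHL-KO replicate 4 and 4 by quality weights. Coat and adaptor genes called, 0 in the report, numbered 1 with RLE, 3 with DESeq2, 7 with summed markers, 3 with the length and GC offset, 3 with the median ratio, 9 with that ratio without VHL-KO replicate 4, 2 with quality weights, and 0 to 3 with 1 library left out. Early and recycling endosome genes, 2 in the report, numbered 1 with limma-voom, 9 with summed markers, 9 with the median ratio without VHL-KO replicate 4, and 1 to 2 with 1 library left out. Acidification genes, 2 in the report, numbered 1 with limma-voom, 5 with summed markers, 7 with the length and GC offset, 6 with DESeq2 without VHL-KO replicate 4, 5 with the median ratio without it, 7 with quality weights, and 0 to 6 with 1 library left out. Late endosome and lysosome genes, 2 in the report, numbered 5 with DESeq2, 4 with summed markers, 4 with the length and GC offset, 5 with DESeq2 without VHL-KO replicate 4, 11 with the median ratio without it, 6 with quality weights, and 1 to 5 with 1 library left out. Other receptor and ligand handling genes, 1 in the report, numbered 2 with RLE, DESeq2 or no filter, 0 with limma-voom, 7 with summed markers, 3 with the length and GC offset, 4 with the median ratio, 5 with DESeq2 without VHL-KO replicate 4, 7 with the median ratio without it, 6 with quality weights, and 0 to 5 with 1 library left out.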
